A study of Mus musculus with 3 samples.

Results

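Cell cycle and mitosis genes were followed in skin papillomas of mice that differ in galectin-7. The set held 58 genes, chosen by name for a role in DNA replication, cell cycle control or mitosis, and all 58 were found among the 24028 gene identifiers of the count table. Papillomas, benign tumours of the epidermis, were raised in C57BL/6 mice by DMBA, a carcinogen that starts tumours, and TPA, an agent that promotes their growth. Every group received both agents. The groups were wild-type mice with their own galectin-7, Lgals7-/- mice that lack it, and Tg46 mice, in which a transgene expresses it from the keratin 14 promoter, active in basal keratinocytes. Each genotype gave 1 library, made from 3 pooled tumours, so every difference below is between libraries, has no check from replicates and is not a test of the conditions. In such bulk samples fewer dividing cells and less RNA per cell cannot be told apart.

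Cells pass through the cycle as cyclins switch cyclin-dependent kinases (CDKs) on in turn. D-type cyclins with Cdk4 and Cdk6 act on the Rb protein, which frees E2F factors to switch on genes for DNA synthesis, and later FoxM1 and B-Myb take part in switching on the genes of mitosis. In normal epidermis division is mostly kept to the basal layer, and TPA is known to drive keratinocyte proliferation. Promoters of many late cycle genes carry the cell cycle homology region (CHR), bound by repressor and activator complexes, together with CCAAT boxes.

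The promoters of these genes are shown first because CHR, CCAAT and E2F letters were more frequent in them than in all windows, though not common to all members. RefSeq windows (GRCm38.p6) from 250 bases before to 50 bases after a transcription start were found for 47 of the 58 members, 55 windows in all. Both strands were searched for the CHR letters TTTGAA and TTCGAA, for CCAAT, and for the E2F letters TTTCGCGC, TTTGGCGC, TTTCCCGC and TTTGGCGG. CHR letters stood in 27 of the 55 windows (49.1%), against 19.2% of all 32851 windows in the table. CCAAT stood in 40 (72.7%, against 37.4% of all windows) and an E2F element in 12 (21.8%, against 2.37%). CHR letters and CCAAT occurred together in 25 windows (45.5%, against 7.52%). These shares describe letters and not binding, and all windows were not matched on base composition. The 150 bases before the start are printed for the 4 members with most counts among those called in a comparison whose window holds CHR letters, Ncapg, Aurka, Ncapd2 and Bub1. Kif11 and Top2a were added after their values were seen, because both were lower in Lgals7-/- than in wild-type. Capitals mark CHR, CCAAT and E2F letters.
Ncapg (chr5:45669775-45669924, plus strand): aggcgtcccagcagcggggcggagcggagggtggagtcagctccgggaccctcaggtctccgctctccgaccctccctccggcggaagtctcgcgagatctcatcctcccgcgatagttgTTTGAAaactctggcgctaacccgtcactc
Aurka (chr2:172370571-172370720, minus strand): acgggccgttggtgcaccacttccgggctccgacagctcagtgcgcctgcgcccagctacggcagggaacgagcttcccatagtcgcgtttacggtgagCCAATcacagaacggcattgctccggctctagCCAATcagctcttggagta
Ncapd2 (chr6:125191587-125191736, minus strand): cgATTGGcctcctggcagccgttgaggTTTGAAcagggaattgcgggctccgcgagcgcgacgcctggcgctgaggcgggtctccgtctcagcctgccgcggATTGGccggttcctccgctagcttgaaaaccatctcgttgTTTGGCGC
Bub1 (chr2:127831860-127832009, minus strand): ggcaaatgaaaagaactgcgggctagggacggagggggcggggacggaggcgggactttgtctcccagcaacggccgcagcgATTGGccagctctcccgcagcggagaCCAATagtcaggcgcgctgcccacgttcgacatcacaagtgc
Kif11 (chr19:37376232-37376381, plus strand): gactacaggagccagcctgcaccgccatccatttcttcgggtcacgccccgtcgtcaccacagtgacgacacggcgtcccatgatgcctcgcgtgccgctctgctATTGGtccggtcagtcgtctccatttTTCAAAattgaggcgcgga
Top2a (chr11:99024190-99024339, minus strand): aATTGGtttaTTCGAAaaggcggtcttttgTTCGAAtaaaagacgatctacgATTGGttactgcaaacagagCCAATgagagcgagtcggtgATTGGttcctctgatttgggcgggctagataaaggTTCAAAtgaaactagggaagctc
In Ncapg, TTTGAA began 30 bases before the start, and in Kif11 its reverse complement began 19 bases before. In Top2a CHR letters began 140, 120 and 23 bases before the start, amid several CCAAT boxes on either strand. Ncapd2 had CHR letters 123 bases and an E2F element 8 bases before the start. The CHR letters of Aurka and Bub1 lay after the start, outside the stretch shown.

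The libraries were shallow, with totals of 172011 counts (wild-type), 312600 (Lgals7-/-) and 354499 (Tg46), and 3 counts, the floor used for a gene at 0, corresponded to 17.4, 9.11 and 8.95 CPM. CPM is the count scaled to a common library size with TMM factors. The Lgals7 gene had 0 counts in the wild-type library, 2 in the Lgals7-/- and 4 in the Tg46 library, too few to check the labels. In the same order, the housekeeping genes Gapdh and Actb held only 0, 5 and 4 counts and 3, 13 and 13 counts. How far the counts follow RNA levels was not tested. All 8 keratinocyte markers were detected in every library, with summed levels of 851, 1722 and 2160 CPM, lowest in wild-type. Dsp alone gave 313, 617 and 818 CPM of these sums. Dsp, Dsg3, Krt1, Krt5, Krt10 and Krt14 were each lowest in wild-type. Trp63 was highest there (98.4, 54.7 and 62.7 CPM), and Perp was lowest in Lgals7-/- (11.6, 6.08 and 44.8 CPM). Hair follicle markers summed to 1343, 4165 and 874 CPM, of which Tchh alone gave 926, 3652 and 624 CPM. Krt25, Krt27, Krt35 and Krt71 were highest in Lgals7-/- as Tchh was, Msx2 in wild-type and Lef1 in Tg46. Macrophage, T lymphocyte, fibroblast, endothelial and muscle markers were also present. Of the matched markers in these 7 lists, none was at 0 in all libraries, while Lum, a fibroblast marker, and Cd4, a T lymphocyte marker, were at 0 in wild-type. The 1490 chemosensory receptor genes, whose main known site is sensory neurons, stood at 3.25, 2.56 and 2.37 CPM per kb of exon, highest in wild-type. The keratinocyte marker sum and this receptor level differ between wild-type and both other libraries, and their part in the results below was not tested.

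Cell cycle genes were called higher or lower about as often as other genes, while their median depended on which members were counted. Of the 58 members, 49 reached 10 counts in at least 1 library and were compared. The call for higher or lower required a count ratio of at least 2-fold and an exact 95% interval that excluded 1, and that interval covers counting error only. In Lgals7-/- over wild-type 4 of 49 were called higher (8.16%), where 13.3% of the 12940 genes tested were, and 6 were called lower (12.2%), where 13.7% of all genes were. In Tg46 over wild-type 9 were called higher (18.4%, against 13.7% of all genes) and 6 lower (12.2%, against 13.9%). In Tg46 over Lgals7-/- 4 were called higher (8.16%, against 8.43%) and 3 lower (6.12%, against 7.73%). The median log2 ratios of the members were 0.10, 0.10 and 0.02 in that order, beside 0.10, 0.11 and -0.03 over all genes tested. With genes at 0 set to the floor the first median was 0.02, beside 0.04 over all genes. Over the 33 tested members with no exon on the opposite strand the medians were 0.01, -0.33 and -0.17, beside 0.11, 0.02 and -0.03 over all such genes. These shares are near the background, and both comparisons with wild-type share that library.

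**Figure D1:**
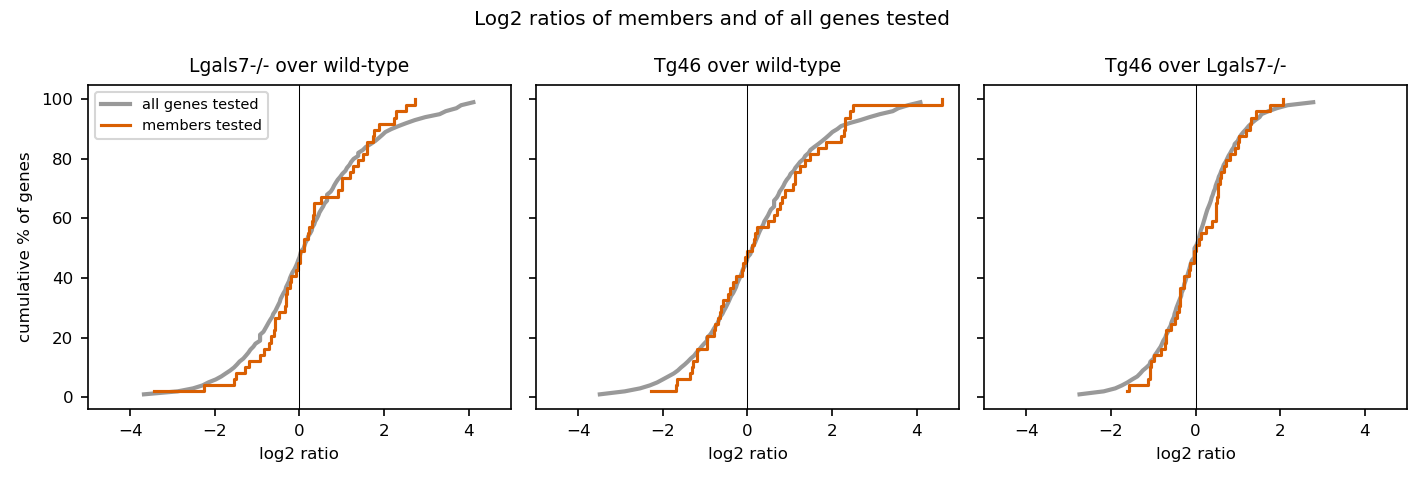
Cumulative share of genes (vertical axis, %) by log2 ratio (horizontal axis) for the 49 members tested (orange steps) and the 12940 genes tested (grey, 1st to 99th percentile), 1 panel per comparison. The curves lie close together in the middle, with member medians of 0.10, 0.10 and 0.02, and the members reach less far in the tails. At the 95th percentile members stood at 2.27, 2.37 and 1.39, beside 3.32, 3.13 and 1.56 over all genes. At the 5th percentile they stood at -1.52, -1.55 and -1.11, beside -2.15, -2.13 and -1.61.

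The filter on counts bears on these figures. Of the 49 members, 18 held at least 10 counts in all libraries, 7 passed through Lgals7-/- alone, 9 through Tg46 alone and 0 through the shallower wild-type library alone, and a member that passes through the library where it is high is more likely to be called there. Over all 58 members with no filter, 30 had a higher CPM in Lgals7-/- than in wild-type and 28 a lower one, and the same split of 30 and 28 was found for Tg46 over wild-type. For Tg46 over Lgals7-/- it was 29 and 29. With libraries thinned to the wild-type total, the 29 members that passed had medians of -0.32, -0.62 and -0.08, beside -0.09, -0.12 and 0.01 over all genes. The thinning was a single random draw, so these medians and the calls lost in thinned libraries may change with another draw. The 9 members under the filter were Cdk1, Cdk2, Ccnb1, Cdkn1a, Cdkn2a, Cdc25a, Mcm4, Pcna and Rrm2.

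**Figure D2:**
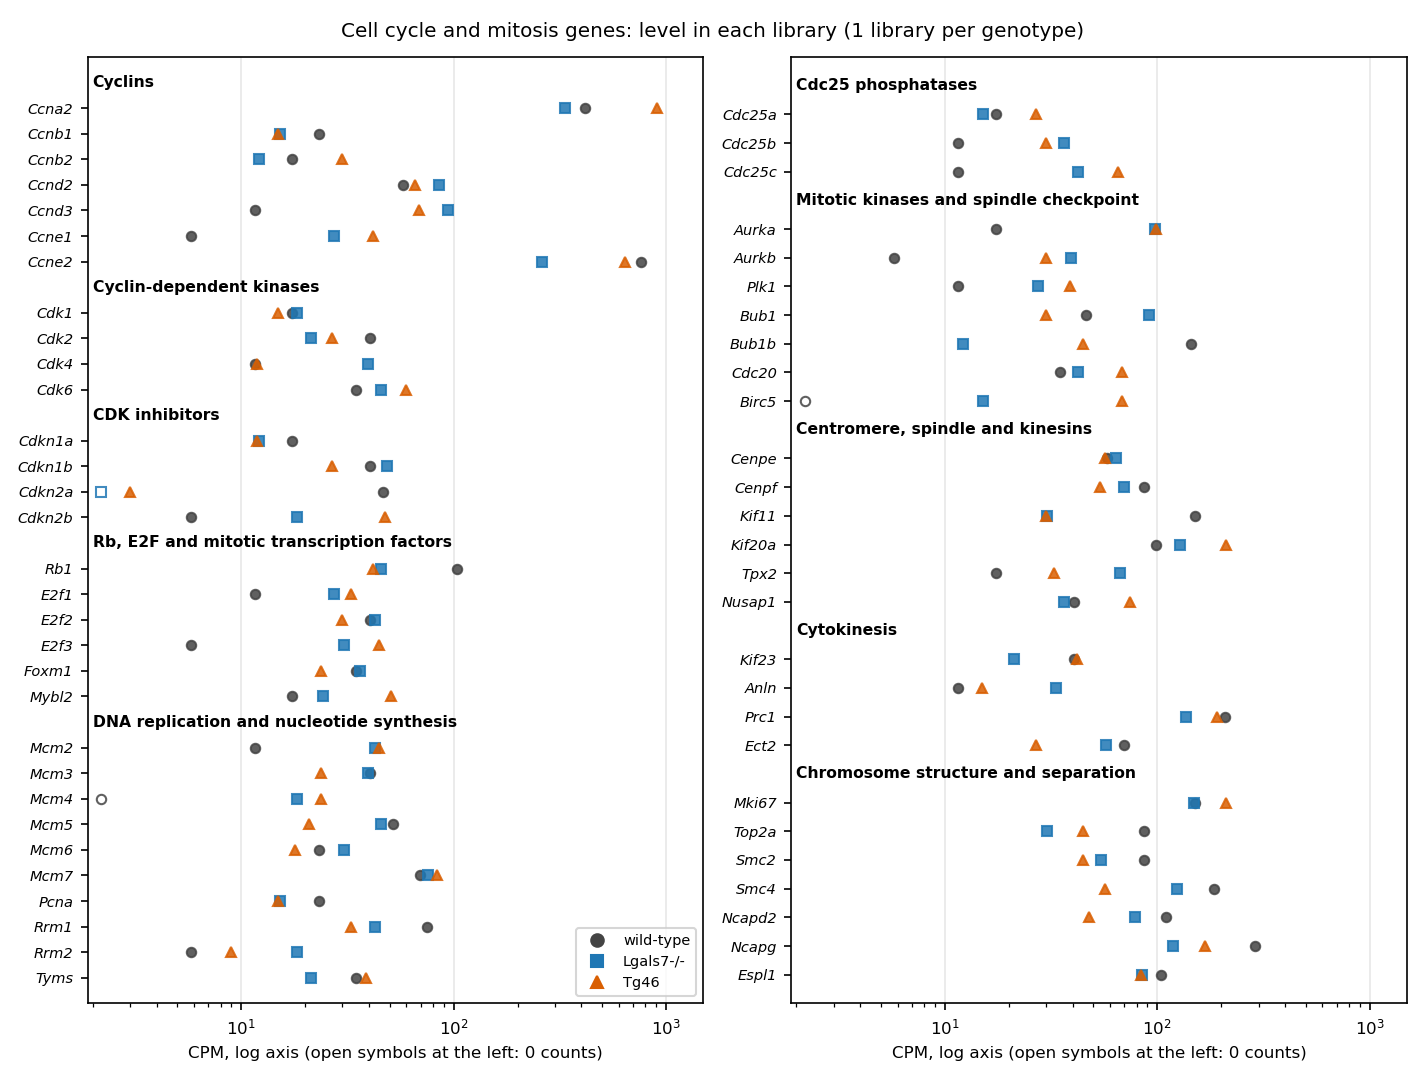
Level of each of the 58 members in CPM on a log axis, grouped by role, with 1 symbol per library (circle wild-type, square Lgals7-/-, triangle Tg46) and open symbols at the left edge for 0 counts. Ccna2 and Ccne2 lie above 260 CPM in every library, and wild-type is the highest library for 6 of the 7 chromosome structure genes.

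Among the cyclins, cyclin A2, E1, E2 and D3 differed between libraries and cyclins B1, B2 and D2 were not called. Ccna2, which encodes the cyclin of S phase and early mitosis, lies at chr3:36564865-36572150, minus strand, of mm10. Its counts were 72, 110 and 304, with wild-type given first here and below, then Lgals7-/-, then Tg46 (417, 334 and 907 CPM). It was higher in Tg46, 2.17-fold over wild-type (95% interval 1.68 to 2.86) and 2.71-fold over Lgals7-/- (2.18 to 3.41). Ccne2 (chr4:11191351-11204779, plus strand), one of the cyclins of the entry into S phase, held 132, 86 and 214 counts (764, 261 and 639 CPM). It was 2.92-fold lower in Lgals7-/- than in wild-type (2.21 to 3.88) and 2.44-fold higher in Tg46 than in Lgals7-/- (1.89 to 3.18), while Tg46 and wild-type were not called apart. Its paralogue Ccne1 had another order, with 1, 9 and 14 counts, and was 4.98-fold higher in Tg46 than in wild-type (1.10 to 305), an interval that reflects the single wild-type count. Ccnd3, a D-type cyclin, held 2, 31 and 23 counts. It was higher in both other libraries than in wild-type, 6.61-fold in Lgals7-/- (2.07 to 70.2) and 4.85-fold in Tg46 (1.46 to 51.9). Ccnb1, the main mitotic cyclin, held only 4, 5 and 5 counts, so a difference was not detectable at this depth. Ccnb2 held 3, 4 and 10 counts and Ccnd2 held 10, 28 and 22, and neither was called.

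Ccna2 and Ccne2 stood far above the other members on the scale of CPM per kb of exon, on which genes can be set side by side. Ccna2 stood at 102, 81.8 and 222 CPM per kb and Ccne2 at 219, 74.8 and 183, at or above percentile 98.3 of the 23710 genes with a gene model in every library. Cdk1, the kinase partner of cyclins A2 and B1, stood at 3.52, 3.69 and 3.02. Mki67, the gene of the proliferation marker Ki-67, stood at 15.0, 14.8 and 21.1. The median member stood at 6.61, 8.69 and 6.96 CPM per kb, beside 5.69, 6.78 and 6.60 over all genes. Members lay above the level of the chemosensory receptor genes in 45, 56 and 57 of 58 cases (77.6%, 96.6% and 98.3%), against 62.7%, 78.9% and 81.2% of all genes.

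The kinases and their inhibitors were thinly counted. Cdk4, a partner of D-type cyclins, held 2, 13 and 4 counts and was 3.05-fold lower in Tg46 than in Lgals7-/- (1.02 to 13.9). Cdk6 held 6, 15 and 20 counts, Cdk2 held 7, 7 and 9 and Cdk1 held 3, 6 and 5, and none of these was called. Cdkn2a, the locus of the tumour suppressors p16Ink4a and p19Arf, held 8, 0 and 1 counts, nearly all in the shallowest library. It was below the filter. With 3 counts as the floor of a library, its level was at least 5.08-fold lower in Lgals7-/-, and the exact interval, which also counts the error of the wild-type value, began at 3.25-fold. In Tg46 it was 11-fold lower (2.08 to 689). The neighbouring inhibitor gene Cdkn2b (p15Ink4b) held 1, 6 and 16 counts, lowest in wild-type where Cdkn2a was highest, and was 5.67-fold higher in Tg46 than in wild-type (1.28 to 346). Cdkn1a, the p53 target that encodes p21, held 3, 4 and 4 counts, and Cdkn1b, which encodes p27, held 7, 16 and 9. Neither was called.

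Of the transcription factors, Rb1 and E2f3 were called. Rb1, the retinoblastoma gene, held 18, 15 and 14 counts (104, 45.6 and 41.8 CPM). It was lower than in wild-type in both other libraries, 2.27-fold in Lgals7-/- (1.09 to 4.87) and 2.47-fold in Tg46 (1.17 to 5.42), and with upper-quartile scaling neither call held. Its exons overlap Lpar6 (41, 55 and 74 counts) and Rcbtb2 (45, 79 and 94 counts) on the other strand. E2f3, an activating E2F, held 1, 10 and 15 counts and was 5.33-fold higher in Tg46 than in wild-type (1.19 to 326). E2f1 held 2, 9 and 11 counts and E2f2 held 7, 14 and 10. Mybl2, which encodes B-Myb, held 3, 8 and 17 counts and Foxm1 held 6, 12 and 8. These 4 genes were not called.

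Of the 10 DNA replication and nucleotide synthesis genes, 7 were tested and none was called in any comparison, where 46% of all genes tested were called in at least 1. Mcm4, Pcna and Rrm2 were under the filter. Over the 10 genes together the levels were 336, 349 and 310 CPM, with a ratio of 1.04 (0.753 to 1.45) in Lgals7-/- and 0.924 (0.664 to 1.30) in Tg46 over wild-type. Mcm7, a subunit of the replicative helicase, was the most counted, with 12, 25 and 28. Mcm2 held 2, 14 and 15 counts and Mcm4, of the same helicase, 0, 6 and 8, both lowest in wild-type with intervals that include 1. Rrm1, the large subunit of ribonucleotide reductase, held 13, 14 and 11. Pcna, the sliding clamp of DNA polymerase, held 4, 5 and 5, too few for a difference to be seen. The remaining members, Mcm3, Mcm5, Mcm6, Rrm2 and Tyms, held between 1 and 15 counts in any library.

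Regulators of mitotic entry and the spindle checkpoint moved in both directions. Aurka (chr2:172356190-172370535, minus strand), the centrosomal Aurora kinase, held 3, 32 and 33 counts (17.4, 97.2 and 98.5 CPM), so that Lgals7-/- and Tg46 lay close together and above wild-type. It was 4.87-fold higher in Lgals7-/- (1.75 to 28.6) and 4.93-fold higher in Tg46 (1.78 to 28.9) than in wild-type. Aurkb, the Aurora kinase of the chromosomal passenger complex, held 1, 13 and 10 counts and was 4.72-fold higher in Lgals7-/- than in wild-type (1.02 to 290.0), a call that DESeq2 size factors end. Birc5, which encodes survivin of the same complex, held 0, 5 and 23 counts. With wild-type set to the same floor, its level in Tg46 was at least 3.95-fold higher, and the exact interval, which also counts the error of the Tg46 value, began at 2.96. It was 4.20-fold higher than in Lgals7-/- (1.68 to 15.2).

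Bub1b (chr2:118598211-118641591, plus strand), which encodes the checkpoint protein BubR1, was highest in wild-type, with 25, 4 and 15 counts (145, 12.2 and 44.8 CPM). All pairs of libraries were called apart. Bub1b was 10.8-fold lower in Lgals7-/- (4.11 to 47.1) and 3.19-fold lower in Tg46 (1.64 to 6.60) than in wild-type, and 3.38-fold higher in Tg46 than in Lgals7-/- (1.17 to 15.2). Bub1, the related checkpoint kinase gene, held 8, 30 and 10 counts, highest in Lgals7-/-, and was 2.96-fold lower in Tg46 than in Lgals7-/- (1.45 to 7.0). Plk1 held 2, 9 and 13 counts and Cdc20, an activator of the anaphase-promoting complex, held 6, 14 and 23, and neither was called. Of the Cdc25 phosphatases, which activate CDKs, Cdc25c held 2, 14 and 22 counts and was 4.64-fold higher in Tg46 than in wild-type (1.39 to 49.7). Cdc25a held 3, 5 and 9 counts and Cdc25b held 2, 12 and 10.

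Of the centromere and spindle genes, Kif11, Tpx2 and Kif20a were called. Kif11 (chr19:37376403-37421859, plus strand), the motor that pushes spindle poles apart, held 26, 10 and 10 counts (150.5, 30.4 and 29.8 CPM). It was 4.81-fold lower in Lgals7-/- (2.31 to 11.5) and 4.90-fold lower in Tg46 (2.35 to 11.7), with those libraries at nearly the same level. Tpx2, which activates Aurora A on the spindle, held 3, 22 and 11 counts and was 3.37-fold higher in Lgals7-/- than in wild-type (1.16 to 20.1). Kif20a, a kinesin of late mitosis, held 17, 42 and 71 counts and was 2.11-fold higher in Tg46 than in wild-type (1.25 to 3.90). With total counts as the scale Kif20a was under 2-fold. Cenpe, Cenpf and Nusap1 held 7 to 25 counts and were not called. Among the cytokinesis genes Prc1, a midzone microtubule bundler, held 36, 45 and 64 counts with no call. Ect2, an exchange factor for RhoA, held 12, 19 and 9 counts and was 2.55-fold lower in Tg46 than in wild-type (1.0 to 6.95), with an interval that ends at the edge of the rule. Kif23 and Anln held 2 to 14 counts.

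Genes of chromosome structure and separation were the role in which wild-type was highest most often. Their summed levels were 1013, 641 and 656 CPM, that is 1.58-fold (1.29 to 1.94) and 1.54-fold (1.26 to 1.89) below wild-type. The condensin subunit gene Smc4 held 32, 41 and 19 counts (185, 125 and 56.7 CPM), lowest in Tg46. It was 3.23-fold lower there than in wild-type (1.8 to 6.10) and 2.17-fold lower than in Lgals7-/- (1.25 to 4.01). Ncapg, another condensin subunit gene, held 50, 39 and 56 counts and was 2.44-fold lower in Lgals7-/- than in wild-type (1.57 to 3.81). Ncapd2 held 19, 26 and 16 counts and was 2.29-fold lower in Tg46 than in wild-type (1.12 to 4.79). Smc2 held 15, 18 and 15 and was not called. Top2a, the topoisomerase that untangles sister chromatids, held 15, 10 and 15 counts and was 2.81-fold lower in Lgals7-/- than in wild-type (1.2 to 7.11). Mki67 held 26, 49 and 71 counts (150.5, 149 and 212 CPM), with a ratio of 0.980 (0.603 to 1.66) in Lgals7-/- and 1.39 (0.887 to 2.30) in Tg46 over wild-type. Espl1, the gene of separase, held 18, 28 and 28 counts. For Mki67 and Espl1 no pair of libraries was called apart.

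**Figure D3:**
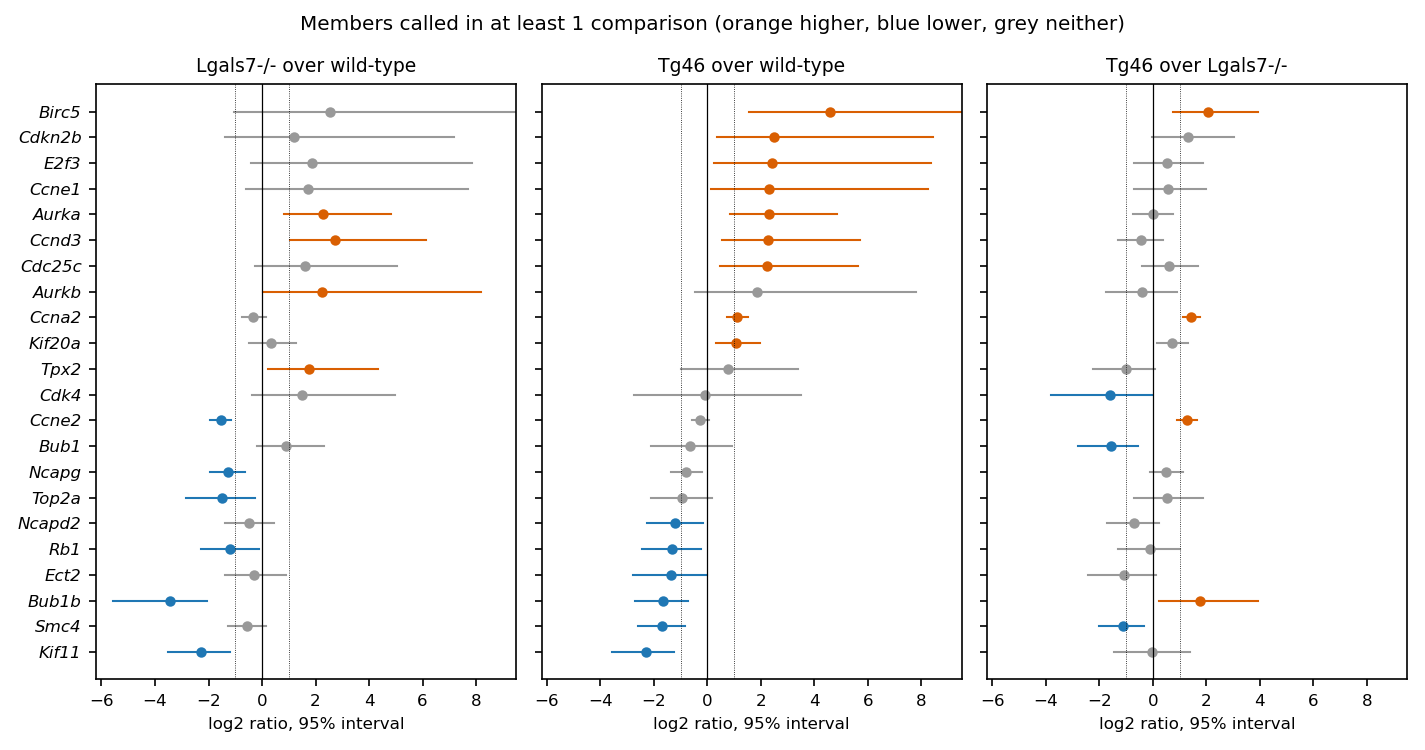
Log2 ratio (point) and exact 95% interval (line) of the 22 members called in at least 1 comparison, with panels for the comparisons, dotted lines at 2-fold, and orange for higher, blue for lower and grey for neither. The Birc5 lines that run to the right edge have no upper limit, and the Kif11 points lie far to the left in both panels against wild-type.

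In all, 22 of the 49 members were called in at least 1 comparison (44.9%), where 46% of all genes tested were. Aurka and Ccnd3 were higher (2 members, 4.08%, against 6.09% of all genes), and Kif11, Bub1b and Rb1 lower (3 members, 6.12%, against 8.9%), in both comparisons with wild-type, which share the wild-type library. In libraries thinned to the wild-type total, calls against wild-type of Aurkb, Rb1 and Tpx2 in Lgals7-/- and of Ccne1, E2f3, Ect2, Kif20a and Ncapd2 in Tg46 were lost, as were those of Bub1b, Cdk4 and Smc4 between Tg46 and Lgals7-/-. The summed counts of all 58 members were 718, 1084 and 1473, or 0.417%, 0.347% and 0.416% of each library. With TMM-scaled library sizes the ratio of these sums to wild-type was 0.792 (0.720 to 0.872) in Lgals7-/- and 1.06 (0.967 to 1.16) in Tg46, where with total counts it was 0.995, and Tg46 stood at 1.33 times Lgals7-/- (1.23 to 1.44). Those sums rest on a few genes. Without Ccna2, Ccne2, Mki67 and Prc1, the 4 with most counts (Prc1 ties with Ncapg), the ratios were 0.922 (0.820 to 1.04), 0.935 (0.833 to 1.05) and 1.01 (0.919 to 1.12), and none of these intervals excluded 1.

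Overlapping genes bear on the highest members. Exons of 18 members (31.0%) overlap exons of a gene on the other strand, which holds for 24.4% of all genes with a gene model. The sources used here do not say whether strand was used in counting. Reads of a member and of the gene across can then not be told apart where they overlap. Ccna2, Ccne2, Prc1 and Ncapg, 4 of the 5 members with most counts, were among the 18. Summed over genes, members with such an overlap stood at 22.4, 15.9 and 27.7 CPM per kb and those without one at 8.80, 7.83 and 7.47. Over all genes these values were 13.2, 12.9 and 16.3 with an overlap and 8.40, 7.90 and 7.85 without. The 40 members without an overlap had summed ratios to wild-type of 0.890 (0.776 to 1.02) in Lgals7-/- and 0.849 (0.740 to 0.976) in Tg46, and Tg46 stood at 0.954 of Lgals7-/- (0.847 to 1.08). For the 18 with an overlap the same ratios were 0.708 (0.620 to 0.810), 1.24 (1.10 to 1.40) and 1.75 (1.57 to 1.95).

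**Figure D4:**
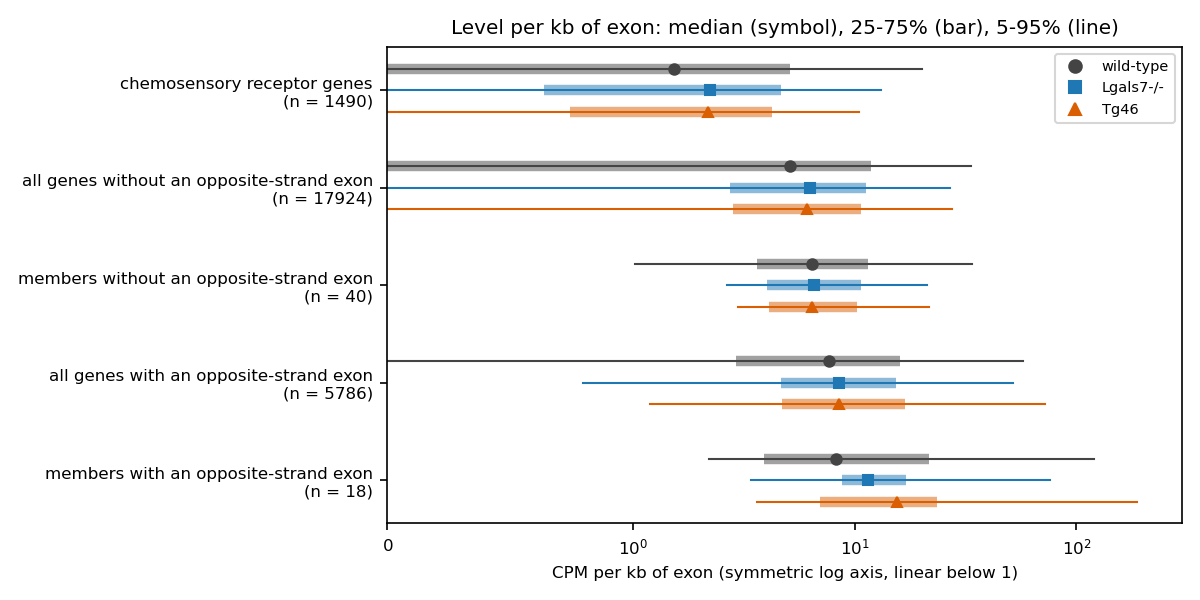
CPM per kb of exon (symmetric log axis) by gene set and library, with the median as a symbol, the 25th to 75th percentile as a bar and the 5th to 95th as a line. Members without an opposite-strand exon have medians near those of all such genes, and members with one have medians of 8.25, 11.4 and 15.5 CPM per kb.

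For several members a gene across differed in the same direction in a comparison. Exosc9, a gene of the RNA exosome, overlaps Ccna2 by 510 exon bases and held 89, 89 and 289 counts, 3.18-fold higher in Tg46 than in Lgals7-/- (2.51 to 4.09), where Ccna2 was 2.71-fold higher. Ints8, of the Integrator complex, overlaps Ccne2 by 609 bases and held 55, 45 and 146 counts. It was 2.32-fold lower in Lgals7-/- than in wild-type (1.54 to 3.53) and 3.16-fold higher in Tg46 than in Lgals7-/- (2.27 to 4.56), both in the direction of Ccne2. Cdc23, a subunit of the anaphase-promoting complex, overlaps Kif20a by 1271 bases and held 67, 96 and 255 counts (388, 292 and 761 CPM). Both were highest in Tg46, but Cdc23 was lowest in Lgals7-/- and Kif20a in wild-type (98.4, 128 and 212 CPM). In Tg46 over wild-type Cdc23 was 1.95-fold higher (1.49 to 2.61), short of the 2-fold rule, where Kif20a was 2.11-fold higher. Tspan31 overlaps Cdk4 by 641 bases and held 6, 37 and 15 counts, 2.46-fold lower in Tg46 than in Lgals7-/- (1.35 to 4.93), beside 3.05-fold for Cdk4. Bysl overlaps Ccnd3 by 361 bases and held 4, 26 and 21 counts, lowest in wild-type as Ccnd3 was. Lcorl overlaps Ncapg by 944 bases and held 84, 80 and 195 counts, 2.39-fold higher in Tg46 than in Lgals7-/- (1.84 to 3.15), where Ncapg was not called. In Lgals7-/- over wild-type Lcorl was 2.0-fold lower (1.46 to 2.75), just short of the 2-fold rule, where Ncapg was 2.44-fold lower. These 6 pairs were chosen after their values were seen. Aurka, Bub1b, Kif11, Birc5, Smc4, Top2a, Tpx2 and Mki67 have no opposite-strand exon in this annotation. Processed pseudogenes named after Ccnb1, Ccnb2, Ccnd3, Pcna and Tyms are annotated, so the counts of these 5 members are uncertain.

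**Figure D5:**
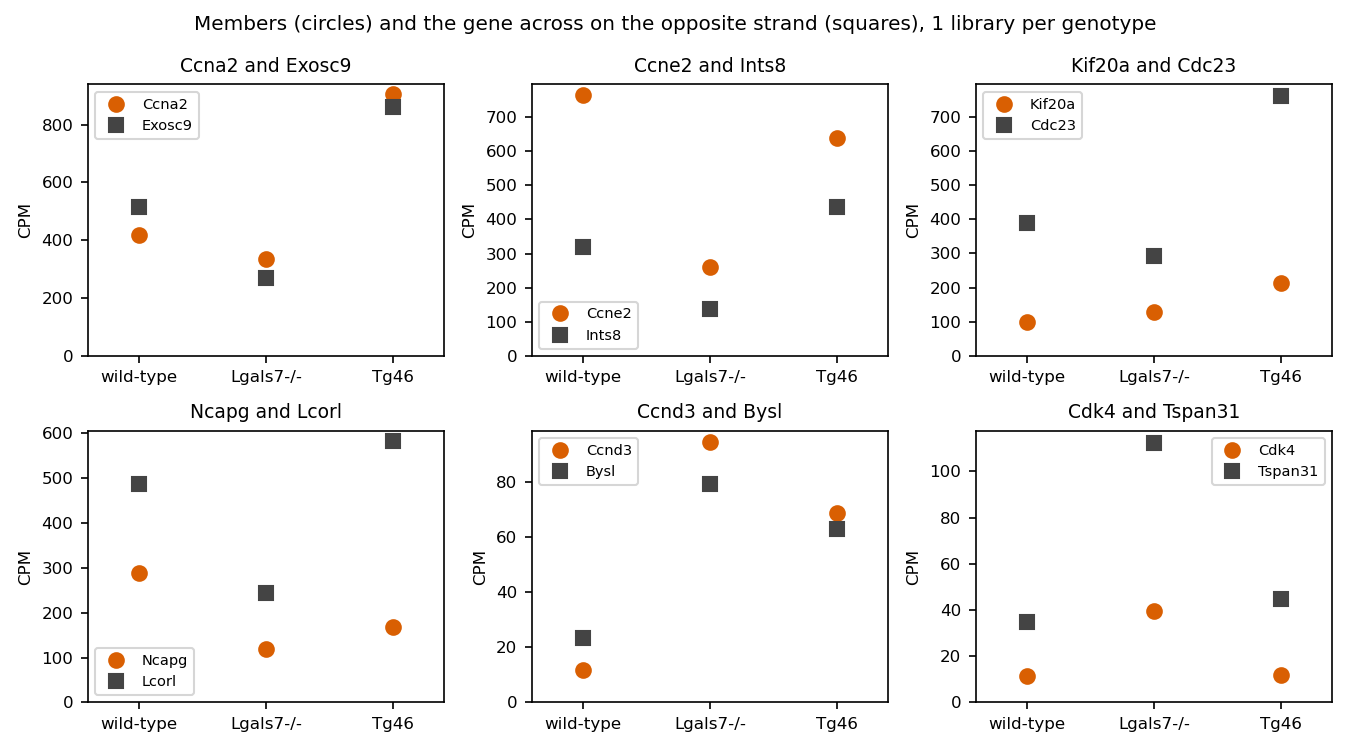
CPM of 6 members (orange circles) and of the gene across on the opposite strand (dark squares) in each library, on linear axes from 0. In 4 of the 6 pairs the library with the highest level is the same for both genes, and the exceptions, Ccne2 and Ncapg, are highest in wild-type where the gene across is highest in Tg46.

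Further genes of the pathway were called lower than in wild-type more often than higher. Of 102 other cell cycle genes listed, all 102 were matched and 79 tested. In Lgals7-/- over wild-type 9 were called higher and 16 lower (11.4% and 20.3%, with a median log2 ratio of -0.08), in Tg46 over wild-type 6 and 16 (7.59% and 20.3%, median 0.09), and in Tg46 over Lgals7-/- 2 and 4 (2.53% and 5.06%, median 0.09). Of all genes tested, 13.3% were higher and 13.7% lower, 13.7% higher and 13.9% lower, and 8.43% higher and 7.73% lower in these comparisons. The first and second share the wild-type library. Wee1, the kinase that restrains Cdk1, held 25, 183 and 203 counts and was 3.78-fold higher in Lgals7-/- (2.52 to 6.09) and 4.11-fold higher in Tg46 (2.76 to 6.62) than in wild-type. E2f4, a repressive E2F, held 0, 21 and 28 counts, at least 3.67-fold and 4.81-fold higher than a wild-type level at the floor, with exact intervals that began at 2.73 and 3.66. Tk1, thymidine kinase, held 4, 48 and 41 counts and was 5.66-fold (2.31 to 24.1) and 4.75-fold higher (1.91 to 20.3).

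On the other side, Dbf4, the activator of the Cdc7 kinase, held 40, 19 and 9 counts. Against wild-type it was 3.96-fold lower in Lgals7-/- (2.27 to 7.33) and 8.27-fold lower in Tg46 (4.12 to 20.2). Hmmr, a spindle protein gene, held 11, 1 and 4 counts, 14.6-fold lower in Lgals7-/- (3.05 to 902) and 4.96-fold lower in Tg46 (1.58 to 23.0). Rfc1 and Orc5, of the clamp loader and the origin recognition complex, were 4.99-fold (2.41 to 11.9) and 8.76-fold lower (2.29 to 97.3) in Lgals7-/-. In Tg46, Rfc1 and Orc5 were 2.37-fold (1.31 to 4.39) and 2.97-fold lower (1.08 to 9.27). The checkpoint gene Mad2l1 was 2.91-fold lower in Lgals7-/- (1.19 to 7.76) and 4.33-fold lower in Tg46 (1.63 to 14.4). Between Tg46 and Lgals7-/-, Cenpu was 2.69-fold higher (1.60 to 4.90) and Cdc45 2.26-fold higher (1.11 to 5.21), both with an opposite-strand exon. Cdc7 was 4.64-fold lower (1.71 to 20.5), Mcm10 2.53-fold (1.39 to 5.05) and Ncapd3 2.35-fold lower (1.25 to 4.85). Ccnd1, the gene of cyclin D1, whose exons also overlap a gene on the other strand, held 18, 35 and 47 counts and was not called.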

How the data were processed

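RNA of papillomas from 3 genotypes was sequenced as 1 library per genotype, each from 3 pooled tumours, per the labels' protocols. The authors deposited raw counts for each Entrez gene, and mm10 is the build in the submitters' processing notes. The aligner and counting tool were not given in the sources used here, nor was the use of strand. Symbols and promoter windows came from RefSeq (GRCm38.p6), exon lengths and overlaps from GENCODE M21 (23710 of 24028 identifiers).

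TMM factors from edgeR 4.0.16 (R 4.3.3) were 1.05 for Lgals7-/- and 0.945 for Tg46, relative to wild-type near 1. The 12940 genes that reached 10 counts in any library were compared, with 0.5 counts added to each library and exact Clopper-Pearson 95% intervals of the count ratio, which cover counting error only. The labels mention no molecular identifiers, so reads may not be independent molecules. No p-values are given, since 1 library per genotype allows no test across samples. Intervals and calls were checked on simulated counts that varied by counting error alone, as the intervals assume. That check concerns the calculation and cannot show how calls hold under variation between tumours or libraries. The members, lists, comparisons and motifs were chosen with earlier results of these data known. Values were given for 7 marker genes of the cycle, every called member, the 6 members with most counts, and up to 3 genes each way of the other cell cycle list. As alternatives, library sizes were scaled by total counts, by upper quartiles or with DESeq2 1.42.0, and the rest were other filters, 5 added counts, other call rules, members without opposite-strand exons and thinned libraries. Python 3.11.15, numpy 2.4.6, scipy 1.17.1, pandas 2.3.3 and matplotlib 3.10.9 were used.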

Additional observations from a re-analysis of the deposited data

How the results depend on the processing

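No paired analysis was possible because there is only 1 library of each genotype. Depth limits these results, since 9 of 58 members never reached 10 counts. Values come in the order Lgals7-/- against wild-type, Tg46 against wild-type and Tg46 against Lgals7-/-, and where no cause follows from the setting itself the cause was not tested. Calls numbered 4, 9 and 4 higher and 6, 6 and 3 lower, of 49 members tested, and the counts below are also of 49 unless another number is given. A 2-fold ratio alone gave 13, 15 and 8 higher, and in Tg46 against Lgals7-/- 6 were lower (all genes 25.3%, 25.6% and 14.0% higher, 12.8% lower). Where the whole interval had to lie beyond 2-fold, 1, 1 and 1 were higher and 3, 1 and 0 lower (all genes 1.82%, 2.06% and 1.14%, and 3.47%, 3.47% and 0.665%). At 4-fold, 2, 1 and 0 were lower and in Tg46 against Lgals7-/- 1 was higher (all genes 5.53%, 5.90% and 2.39%, and 2.51%). With 5 counts added 2 and 4 were higher against wild-type (all genes 4.51% and 5.09%). Over the 33 tested members with no opposite-strand exon, 5 and 2 were higher in the comparisons of Tg46 and 3 lower in Lgals7-/- against wild-type. These are 15.2%, 6.06% and 9.09% of the 33, beside 12.4%, 6.87% and 15.1% of all such genes. Upper-quartile factors left 3 lower in Tg46 against wild-type, and total counts gave 5 lower in Tg46 against Lgals7-/- (all genes 10.6% and 10.6%). Thinning left 5 higher in Tg46 against wild-type, of only 29 members that passed the filter (all genes 12.2%). Member medians changed with thinning to -0.32 and -0.62 against wild-type. They changed sign in 3 of 8, 4 of 8 and 5 of 8 alternatives, within -0.32 to 0.31, -0.62 to 0.34 and -0.17 to 0.26. With each scaling the median of all genes moved by as much as that of the members, by up to 0.24 with upper-quartile factors. The summed ratio of Lgals7-/- over wild-type was 0.919 with upper-quartile factors, 0.922 without the 4 members with most counts and 0.890 with no opposite-strand exon, all with intervals including 1. That of Tg46 over wild-type was 1.25 with upper-quartile factors, where the interval excluded 1, and below 1 with total counts (0.995), without Ccna2 (0.933), without those 4 members (0.935) and with no opposite-strand exon (0.849). That of Tg46 over Lgals7-/- was 1.01 without the 4 and 0.954 with no opposite-strand exon. The last 2 kinds of sum were chosen after seeing the data. Of 435 recomputed ratios of named members, 433 stayed within their interval and 0 reversed a call. The 2 others were Birc5 in Tg46 over wild-type with 5 counts added and Bub1 in Tg46 over Lgals7-/- after thinning. Many of these intervals are wide (1.02 to 290 for Aurkb in Lgals7-/- over wild-type), so staying within them is a weak check. Of 34 calls of named members, Cdkn2a included, 1 was lost with DESeq2 size factors, 1 with total counts, 4 with upper-quartile factors (Rb1 in both comparisons with wild-type, and Ect2 and Ncapd2 in Tg46 over wild-type), 8 with 5 counts added and 11 in thinned libraries.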

Other observations

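Members were also set apart by the letters in their promoters, as a description with no test. The 24 tested members with CHR letters had 1 call higher and 4 lower in Lgals7-/- over wild-type, where 13.3% and 13.7% of all genes tested were called, with a median log2 ratio of -0.16, and the 15 without had 1 higher and 0 lower (median 0.29). In Tg46 over wild-type the counts were 3 higher and 4 lower with CHR letters (median -0.07) and 3 higher and 0 lower without (median 0.10), beside 13.7% and 13.9% of all genes. The lower calls with CHR letters were Ncapg, Kif11, Bub1b and Top2a in Lgals7-/-, and Kif11, Bub1b, Ncapd2 and Ect2 in Tg46. All of them rest on the same wild-type library. The 10 tested members that matched no promoter window are not counted, though several were called. Among those 10, Aurkb and Tpx2 were called higher and Ccne2 and Rb1 lower in Lgals7-/- over wild-type. In Tg46 over wild-type, Ccna2, Cdc25c and Kif20a of the 10 were called higher and Rb1 and Smc4 lower. Between Tg46 and Lgals7-/-, members with CHR letters had 1 call higher and 1 lower, as did those without. Split by CCAAT, the 29 members with it had medians of -0.08 in Lgals7-/- and -0.43 in Tg46 over wild-type. Of them 2 and 3 were called higher and 4 and 4 lower (all genes 13.3% and 13.7% higher, 13.7% and 13.9% lower). The 10 without it had medians of 1.09 and 1.03, with 0 and 3 called higher and 0 and 0 lower. All 10 held 0 to 7 counts in wild-type and passed the filter only through another library, which favours ratios above 1. Members without CHR letters were also below 10 counts in wild-type, all but Cenpe and Rrm1. The part of the filter and that of the letters can therefore not be told apart in the CCAAT and CHR splits. The 8 members with an E2F element had medians of -0.03 and -0.62 and the 31 without 0.21 and 0.18. Of the 24 members with CHR letters 22 also hold CCAAT, so the splits are not separate observations.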
